A study of Gallus gallus with 16 samples.

Results

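Of the 24881 features in the count table, 140 autosomal genes were low in every library that carried a guide RNA and high in both libraries that carried none. They were chosen by their values. Counts were divided by each library's total and scaled by 1e6 (CPM), and a gene qualified with at least 5 CPM in both control libraries, which 9028 of 17717 autosomal genes reached. Its score was the log2 ratio of the lowest control library to the highest of the 14 guide-carrying libraries, each with 0.5 CPM added, and had to be 1 or more. A further clause, a control mean more than 2-fold above the mean of the sox3 and msx1 libraries, removed none of the 140 genes, and a limit of 150 genes was not reached. The 140 genes made up 1.55% of the 9028. With the rule mirrored, 27 of 5840 autosomal genes at 5 CPM or more in all 14 guide-carrying libraries had their lowest such library at the same margin above both controls.

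The libraries came from wild-type chick embryos at stage HH18, electroporated with pCAG Cas9-2A-Citrine, from which Citrine-positive cells labelled as neural crest had been sorted. The protocols name both sorted cells of vagal regions and dissected dorsal neural tubes as the source of RNA. All 6 groups carry Cas9 and Citrine under the broadly active CAG promoter. The sox3 group (2 libraries) also received pcU6:sox3_g1 and pcU6:sox3_g2, and the msx1 group (3 libraries) received pcU6:msx1. The sox10 group (3 libraries) received pcU6:sox10_g1 and pcU6:sox10_g2, the tfap2b group (3 libraries) pcU6:tfap2b_g1 and pcU6:tfap2b_g2, and the double group (3 libraries) both tfap2b guides with pU6:sox10_g1. The control (2 libraries) received no guide plasmid, and no guide against an unrelated sequence was among the treatments. Electroporation gives a mixture of edited and unedited cells, and the labels do not say whether replicate libraries came from different embryos. The p-values below therefore reflect the spread among these libraries, part or all of which may be technical. In sorted bulk samples, fewer cells of a type and less RNA per cell cannot be told apart.

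Neural crest cells arise at the border of the neural plate, leave the dorsal neural tube and, from the vagal level, settle in the gut and the heart, among other places. SOX10 keeps neural crest cells multipotent and is later needed in glia and enteric neurons, and TFAP2B belongs to the AP-2 family that acts in crest induction and survival. MSX1 is a homeodomain factor of the neural plate border, and SOX3 is a SoxB1 factor of neural progenitors. The table identifies genes by ID without names, and 0 of its IDs matched the reference gene table used here. No function is therefore given for any of the 140 genes, the sequence of none is shown, and neither the targeted genes nor neural crest markers could be looked up.

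Total counts ranged from 5721022 to 24929531 per library. Both control libraries, both sox3 libraries and msx1 replicates 1 and 2 were closer to each other than any other replicates. Their counts differed by a mean chi-square per gene of 13.0, 7.42 and 9.95 for the 3 pairs, against 24.1 to 119 for the other pairs. Each pair differed by more than sampling noise and its libraries were kept apart, but separate libraries of 1 sample could differ so too. The summed level of W-linked genes was also close within these pairs, at 364 and 382, 171 and 162, and 842 and 843 CPM. It was 229 CPM in msx1 replicate 3. In sox10 replicates 2 and 3, not a close pair, it was 168 and 161 CPM. Whether a pair came from 1 sample was not tested. Thinned to the depth of the shallowest library, 12617 to 12854 genes had a count in the sox10 libraries, 13246 to 13857 in the tfap2b libraries and 13214 to 13757 in the double libraries. The sox3 and msx1 libraries had 14481 to 14919, and the controls 14482 and 14541. Whatever else distinguished the 2 control libraries from the other 14 cannot be told apart from the absence of a guide.

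The 140 genes together held 0.993% of all counts in the control (SD 0.000859, n = 2) and less in every guide-carrying group. Their share was 0.309% ± 0.0100 in the sox3 group (SD, n = 2) and 0.237% ± 0.0293 in the msx1 group (SD, n = 3). It was 0.0768% ± 0.0124 in the sox10 group, 0.128% ± 0.0303 in the tfap2b group and 0.0963% ± 0.00836 in the double group (SD, n = 3 each). The guide-carrying groups thus formed 2 tiers, with sox3 and msx1 above the other 3. These differences from the control are what the genes were chosen for and carry no test.

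**Figure D1:**
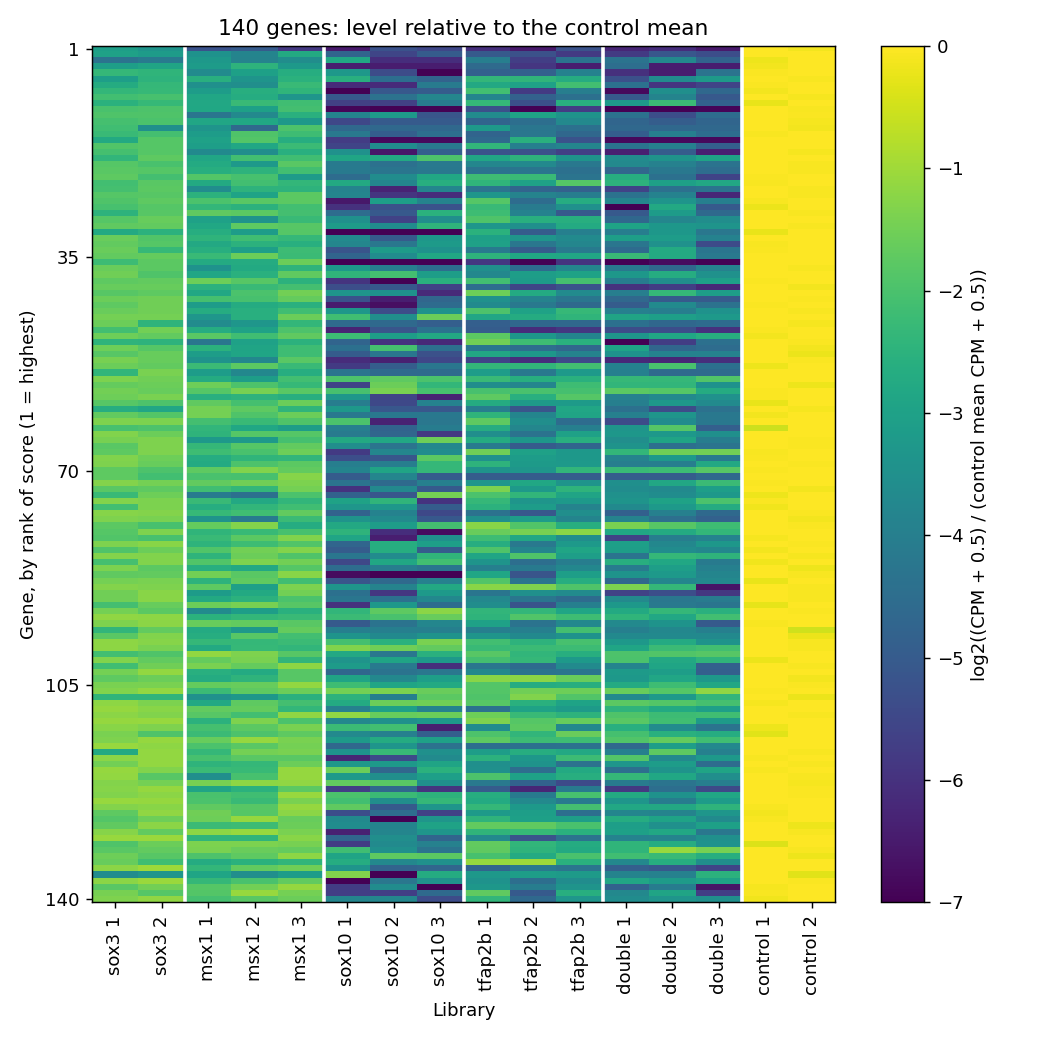
Heat map of the 140 genes (rows, by rank of score) in 16 libraries (columns), coloured by log2((CPM + 0.5) / (control mean CPM + 0.5)), with values under -7 or above 0 shown at the ends of the scale. The sox3 and msx1 columns are lighter than the sox10, tfap2b and double columns, where dark cells mark genes at or near 0 counts.

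Expressed for each gene as a percentage of its control mean, the median gene stood at 30.4% in the sox3 group and 20.4% in the msx1 group. It stood at 5.06% in the sox10 group, 9.43% in the tfap2b group and 6.18% in the double group. Over the 9028 genes that met the control minimum, the same medians were 89.6%, 97.3%, 51.3%, 62.3% and 69.6%, so the sox10, tfap2b and double libraries were below the control in the median gene as well. In the sox3 group 109 genes lay between 25% and 50% of the control, where the rule itself set the upper edge. The quartiles of the 140 were 25.4% and 37.7% there, against 2.08% and 10.4% in the sox10 group. In the sox10 group 104 genes were under 10% of the control, in the double group 94, in the tfap2b group 73, in the msx1 group 8 and in the sox3 group 3.

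Scaling by the library total bears on that background, and TMM factors (edgeR's trimmed mean of M-values) were 0.759 to 0.839 in the sox10 libraries against 1.12 and 1.17 in the control. With TMM scaling, the median log2 fold change of the 140 genes was -1.70 in the sox3 group, -2.39 in the msx1 group, -3.78 in the sox10 group, -3.07 in the tfap2b group and -3.74 in the double group. All 14081 genes tested had medians of -0.07, -0.05, -0.31, -0.18 and -0.09 in the same order of groups. Every one of the 140 was negative in each group, the nearest to 0 being -0.99 in the sox10 group. The margin required by the rule largely fixed that sign in advance. With TMM-scaled CPM in the rule itself, 120 genes qualified, 112 of them among the 140.

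**Figure D2:**
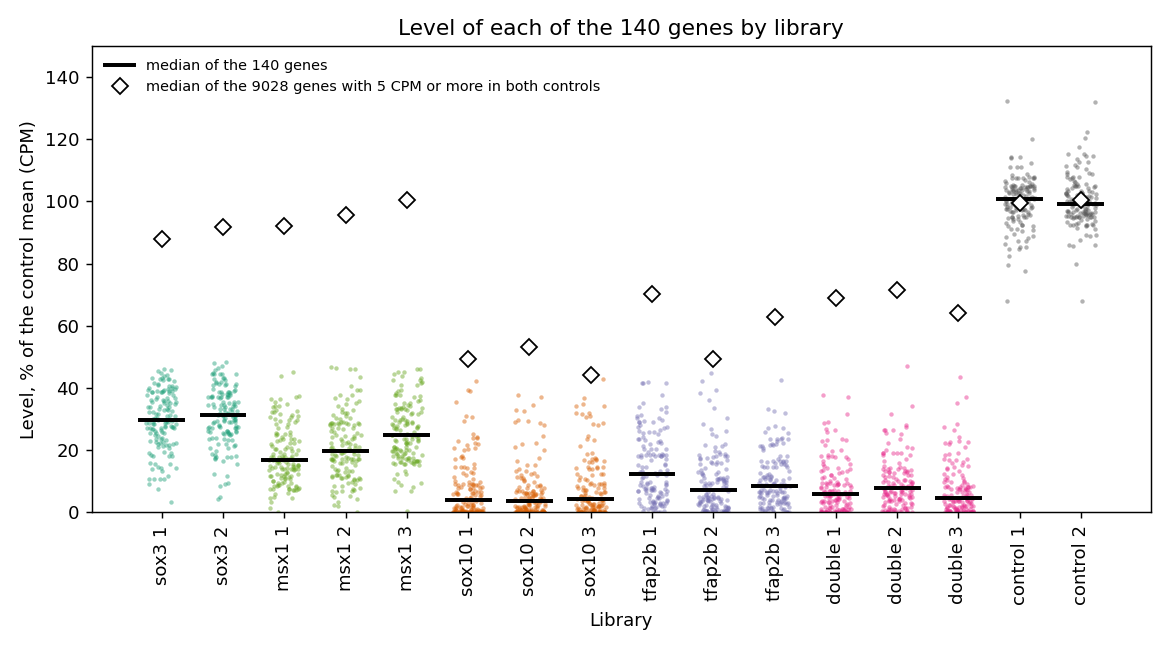
Level of each of the 140 genes (points) in each library as a percentage of its control mean in CPM, with their median (bars) and the median of the 9028 genes with 5 CPM or more in both controls (diamonds). Library medians of the 140 run from 3.70% to 4.38% in the sox10 group and from 29.8% to 31.2% in the sox3 group, while the diamonds stay at 44.1% or more everywhere.

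The ceiling that a gene had to stay under was set mostly by the sox3 and msx1 libraries. The highest of the 14 guide-carrying libraries was a sox3 library for 82 genes and an msx1 library for 40. It was a tfap2b library for 11, a sox10 library for 5 and a double library for 2. Leaving out the sox3 group from the rule, a choice made after the data were seen, let 284 genes qualify and leaving out msx1 let 262, against 151 without sox10, 158 without tfap2b and 143 without the double group. With 1 control library instead of 2, 194 genes qualified on replicate 2 and 187 on replicate 1, and the other control library removed the difference to 140. Between the controls themselves 135 of 140 genes lay within 1.5-fold. The rule scored genes on the lower control, which favours such agreement, and the share over all eligible genes was not computed.

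At the threshold, the last gene inside had 87.6 CPM in the lower control and 43.6 CPM in the highest guide-carrying library (score 1), and the first one outside had 119.6 and 59.6 CPM (score 0.999). The list therefore ends within a continuum. The highest score, 2.96, belonged to ENSGALG00000035557 (galGal5, chromosome 12, 6139852 to 6142332, 4 exons). This gene had 4.79 and 3.81 CPM in the sox3 libraries, 0.699, 0.909 and 0.281 in the msx1 libraries, 0, 0.704 and 0.487 in the sox10 libraries, 0.177, 0 and 0.717 in the tfap2b libraries, 0.0913, 0.159 and 0 in the double libraries, and 48.4 and 40.7 in the controls. The sox3 libraries were the highest of the 14, and no msx1 library overlapped them.

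Second came ENSGALG00000027501 (chromosome 10, 19886093 to 20028017, 21 exons), whose span overlaps 13 other genes without sharing exon positions with them. Its CPM were 2.98 and 2.61 in the sox3 libraries, 2.10, 1.43 and 3.65 in the msx1 libraries, 0.549, 0.101 and 0.390 in the sox10 libraries, 0.354, 0.228 and 0 in the tfap2b libraries, 0, 0.318 and 0.182 in the double libraries, and 27.7 and 27.1 in the controls. Here the sox3 and msx1 libraries overlapped and lay above all 9 others. The same 2 tiers, but with smaller differences from the control, were seen in the most abundant of the 140 genes, ENSGALG00000009641 (chromosome 2, 23601205 to 23640175, 52 exons), which was picked out after its values were seen. It had 374 ± 11.03 CPM in the sox3 group (SD, n = 2), 293 ± 50.3 in the msx1 group, 27.8 ± 15.1 in the sox10 group, 76.5 ± 20.8 in the tfap2b group and 36.9 ± 5.89 in the double group (SD, n = 3 each), against 1096 ± 44.7 CPM in the control (SD, n = 2). That gene alone gave 11% of the summed control level of the 140, and the 10 most abundant gave 33.4%. Per kilobase of exon its control level was 213 CPM, where the median of the 140 was 24.3 and that of the 9028 genes 23.6.

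Few of the genes were uniformly near 0. All 5 guide-carrying groups had means under 10% of the control for 2 genes, ENSGALG00000035557 and ENSGALG00000015599 (chromosome 4, 81976947 to 81979176, 2 exons). In the first, the msx1 libraries overlapped those of sox10 and tfap2b, and the sox3 libraries alone stood apart. The second, chosen after its values were seen, had no tiers even by group means, at 3.86% of the control in the sox3 group, 7.14% in msx1, 4.29% in sox10, 2.92% in tfap2b and 4.0% in the double group. Its sox10 mean came from replicate 1 alone (4.28 CPM, against 0 in replicates 2 and 3). Genes at 0 counts were mostly found in the lower tier, with 21 to 26 of the 140 genes per sox10 library, 9 to 15 per double library and 3 to 5 per tfap2b library, against 0 or 1 per sox3 or msx1 library. At equal depth these counts were 25 to 33, 12 to 21, 5 to 15, and 0 or 1. Of the 9028 genes, 2.63% to 3.40% were at 0 in a sox10 library, against 15.0% to 18.6% of the 140. In a double library these shares were 0.399% to 0.897% against 6.43% to 10.7%. In a tfap2b library they were 0.255% to 0.809% against 2.14% to 3.57%.

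The genes at 0 counts in all libraries of a group are named here although they were seen first. In the sox10 group these were ENSGALG00000044235, ENSGALG00000019018, ENSGALG00000001892 and ENSGALG00000004936, at least 416-fold, 117-fold, 84.0-fold and 72.2-fold lower than their control means of 42.6, 12.0, 8.60 and 7.39 CPM. In the double group they were ENSGALG00000019018, ENSGALG00000033974 and ENSGALG00000005672, at least 160-fold, 747-fold and 77.9-fold lower than control means of 12.0, 56.0 and 5.84 CPM. In the tfap2b group it was ENSGALG00000027330, at least 206-fold lower than 14.9 CPM. The folds are lower bounds in CPM, with 3 counts taken as the most that each group could have held in all its libraries, and cover counting error only. ENSGALG00000044235 and ENSGALG00000001892 also share exon positions with another gene, so their counts are uncertain. ENSGALG00000019018 (chromosome 22, 2263412 to 2265233) was the only one at 0 in 2 groups.

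Differences among the guide-carrying groups were not what the genes were chosen for, although the rule kept all 14 of those libraries under the same ceiling. They were tested with edgeR's quasi-likelihood test with group as the sole factor, all 16 libraries in 1 fit and Benjamini-Hochberg adjustment over the 14081 genes tested in each of 5 contrasts. A gene is called at an adjusted p under 0.05. All 140 passed the expression filter, which they could do through the control libraries alone, and all 140 also passed it with the control libraries left out.

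The contrast between the tiers had the most genes called. The mean of the sox10, tfap2b and double groups was lower than that of the sox3 and msx1 groups for 84 of the 140 genes (60.0%) and higher for 0, at a median log2 fold change of -1.48. Over all 14081 genes, 30.5% were lower and 21.5% higher, at a median of -0.24, and of the 9028 genes with the control minimum 36.7% were lower and 28.0% higher. In either direction 60.0% of the 140 were called, against 64.6% of the 9028. Of the 140, 130 had a negative log2 fold change. DESeq2 called 0 higher and 91 lower (65.0%, against 51.5% of the genes to which it gave an adjusted p, in both directions). At an unadjusted p under 0.05 (edgeR), 96 were lower and 0 higher, but the share of all genes at that p was not computed. All 9 libraries of the lower tier lay under all 5 of the upper for 54 of the 140 genes (38.6%) and for 32.6% of the 9028, and the reverse held for 0 genes and 12.1%. The ceiling of the rule, which kept out genes high in any guide-carrying library, held for the 140 and not for the genes set beside them. Its part in these shares and medians was not tested. Leaving out sox10 replicate 2 gave 2 genes higher and 87 lower.

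The 2 genes named for this contrast, with the largest fold changes among those without overlap, were at or near 0 in most of the 9 lower libraries. ENSGALG00000011145 (chromosome 2, 33598483 to 33600756, a single exon) had 0.110, 0 and 0 CPM in the sox10 libraries, 2.77, 0.304 and 2.60 in the tfap2b libraries and 0.913, 1.27 and 0.848 in the double libraries. It had 41.3 and 56.0 CPM in the sox3 libraries and 28.8, 29.3 and 64.4 in the msx1 libraries, with 188 and 194 in the controls. The log2 fold change between the tiers was -6.29 (SE 0.42, adjusted p = 2.16e-08, edgeR). ENSGALG00000027330 (chromosome 13, 13093269 to 13097891, 2 exons) had 0, 0.604 and 0 CPM in the sox10 libraries, 0 in each tfap2b library, and 0, 0 and 0.121 in the double libraries. It had 4.13 and 3.08 CPM in the sox3 libraries and 3.32, 3.25 and 5.86 in the msx1 libraries, with 15.1 and 14.8 in the controls. Its fitted log2 fold change of -6.01 (SE 0.84, adjusted p = 2.94e-05, edgeR) depends on the prior count, since the tfap2b group was at 0. Neither gene overlapped between the tiers, and both kept their call in 20 of 20 alternatives.

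**Figure D3:**
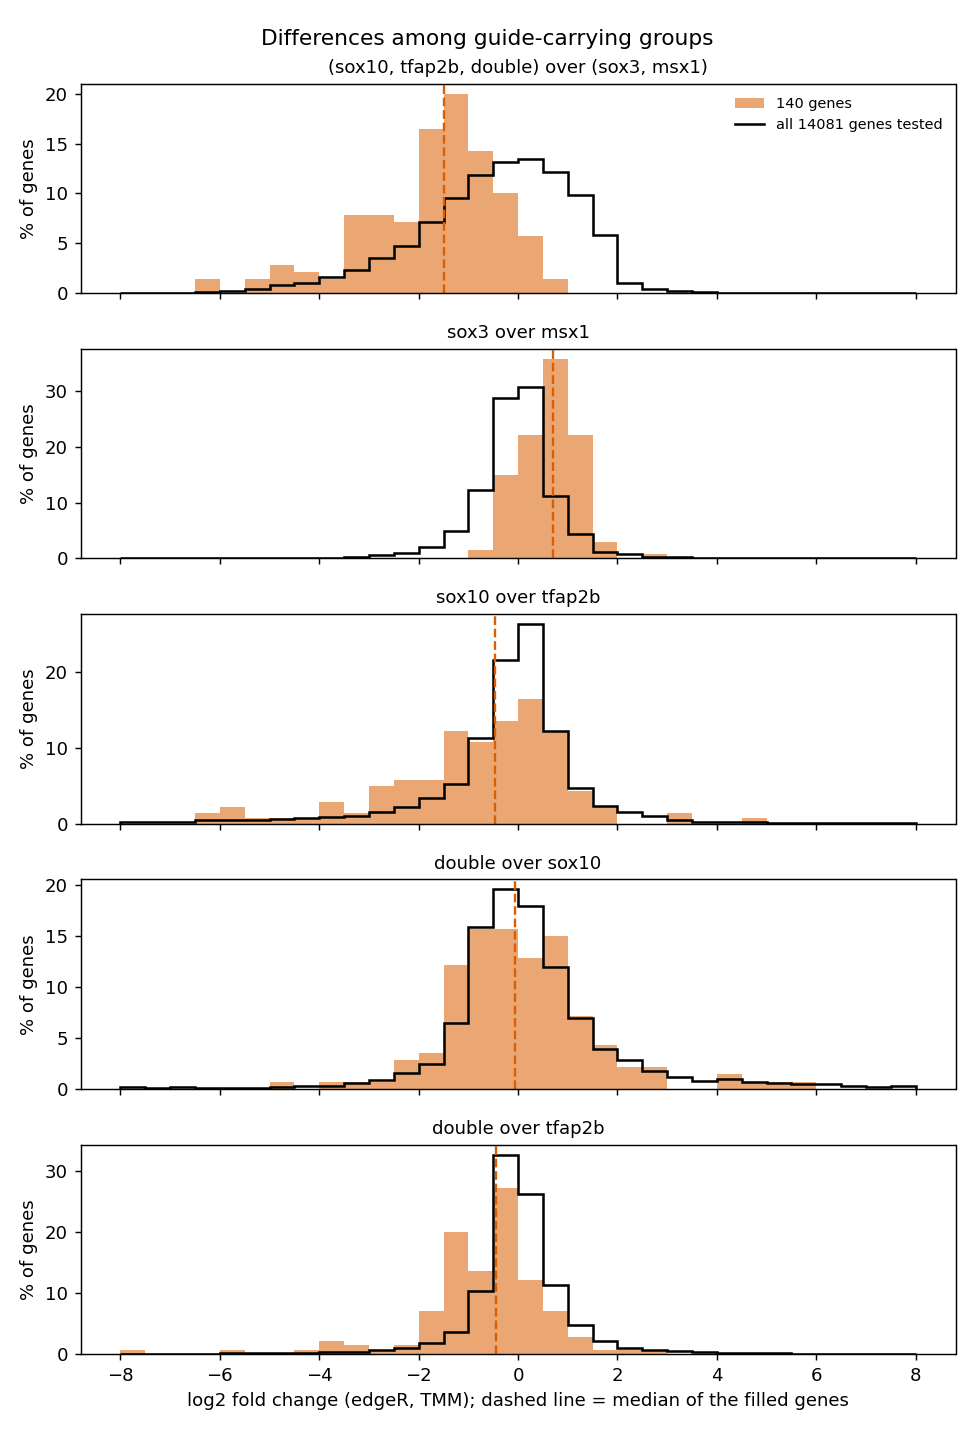
Distribution of log2 fold changes (edgeR, TMM) in the 5 contrasts among guide-carrying groups for the 140 genes (filled) and all 14081 genes tested (line), with the median of the 140 dashed. The filled distribution lies left of the line for the lower tier over the upper tier (median -1.48) and for double over tfap2b (-0.44), right of it for sox3 over msx1 (0.70), and close to it for double over sox10 (-0.07).

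Within the upper tier, the sox3 group was above the msx1 group in most of the genes, but no single gene passed the test. The median log2 fold change of sox3 over msx1 was 0.70, against -0.01 over all genes, with 117 of the 140 positive. edgeR called 0 of the 140, while 0.419% of all genes were called higher and 0.0142% lower. At an unadjusted p under 0.05, 15 of the 140 were higher and 0 lower in sox3, but the share of all genes at that p was not computed. DESeq2 called 6 higher and 0 lower (4.29%, against 2.1% of the genes to which it gave an adjusted p, in both directions). The msx1 libraries were not alike, since the median of the 140 was at 16.9% and 19.8% of the control in replicates 1 and 2 and at 24.8% in replicate 3, and without replicate 3 the median log2 fold change was 0.87. The summed level of W-linked genes also split these libraries, at 171 and 162 CPM in the sox3 libraries against 842, 843 and 229 CPM in the 3 msx1 libraries, with 364 and 382 CPM in the controls. Its part in the difference between sox3 and msx1 was not tested.

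Within the lower tier, sox10 and tfap2b differed for a minority of the genes. In the sox10 group 8 of the 140 (5.71%) were lower than in the tfap2b group and 1 (0.714%) was higher, where 1.92% of all genes were lower and 0.653% higher, with a median log2 fold change of -0.47 against -0.004 over all genes. In both directions together that made 9 of the 140 (6.43%), against 2.57% of all genes. Without adjustment, 41 were lower and 7 higher at a p under 0.05 (edgeR). The share of all genes at that p was not computed. The number called was 15 without sox10 replicate 2 (10.7%, against 6.55% of all genes) and 17 without sox10 replicate 3 (12.1%, against 3.09%). It was 17 without tfap2b replicate 2 (12.1%, against 9.31% of all genes), 5 without tfap2b replicate 1 (3.57%, against 0.799%) and 6 without tfap2b replicate 3 (4.29%, against 1.12%). DESeq2 called 30 (21.4%, against 9.4% of the genes to which it gave an adjusted p). The fit of the 14 guide-carrying libraries alone called 5 (3.57%, against 1.06% of all genes), and summing the close pairs of libraries left 2 (1.43%, against 0.0548%).

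The gene that was higher in the sox10 group was ENSGALG00000015403 (chromosome 1, 89165149 to 89382603, 17 exons), with 15.8, 14.5 and 4.09 CPM in the sox10 libraries against 2.42, 1.37 and 0.717 in the tfap2b libraries. The log2 fold change was 3.07 (SE 0.51, adjusted p = 0.00814, edgeR). Its level in the double group was 2.56, 2.15 and 2.67 CPM, next to that of tfap2b, while the sox3 libraries had 20.5 and 18.3, the msx1 libraries 18.9, 22.4 and 22.9, and the controls 54.8 and 48.4. Replicates 1 and 2 of the sox10 group thus came near the upper tier, while replicate 3 lay between that tier and the tfap2b libraries. The span of this gene overlaps 1 other gene without shared exon positions.

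Among the genes called, the largest difference in the other direction was that of ENSGALG00000006507 (chromosome 24, 3030958 to 3068375, 7 exons). It had 0.329, 0 and 0.0974 CPM in the sox10 libraries against 11.9, 2.05 and 10.2 in the tfap2b libraries (log2 fold change -5.58, SE 0.74, adjusted p = 0.00196, edgeR). The double libraries had 7.95, 9.23 and 5.94 CPM, and the sox3 and msx1 libraries 25.5 to 37.4. ENSGALG00000011145, already named for the tiers, had 1 count in the 3 sox10 libraries together and 80 in the tfap2b libraries, a level 56.8-fold higher in tfap2b (95% exact interval 9.91 to 2272, counting error only; adjusted p = 0.0129, edgeR). Both were lowest in the sox10 group, and ENSGALG00000006507 kept its call in 12 of 12 alternatives. ENSGALG00000011145 and ENSGALG00000015403 lost theirs with the close pairs summed (adjusted p = 0.0766 for each, edgeR).

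**Figure D4:**
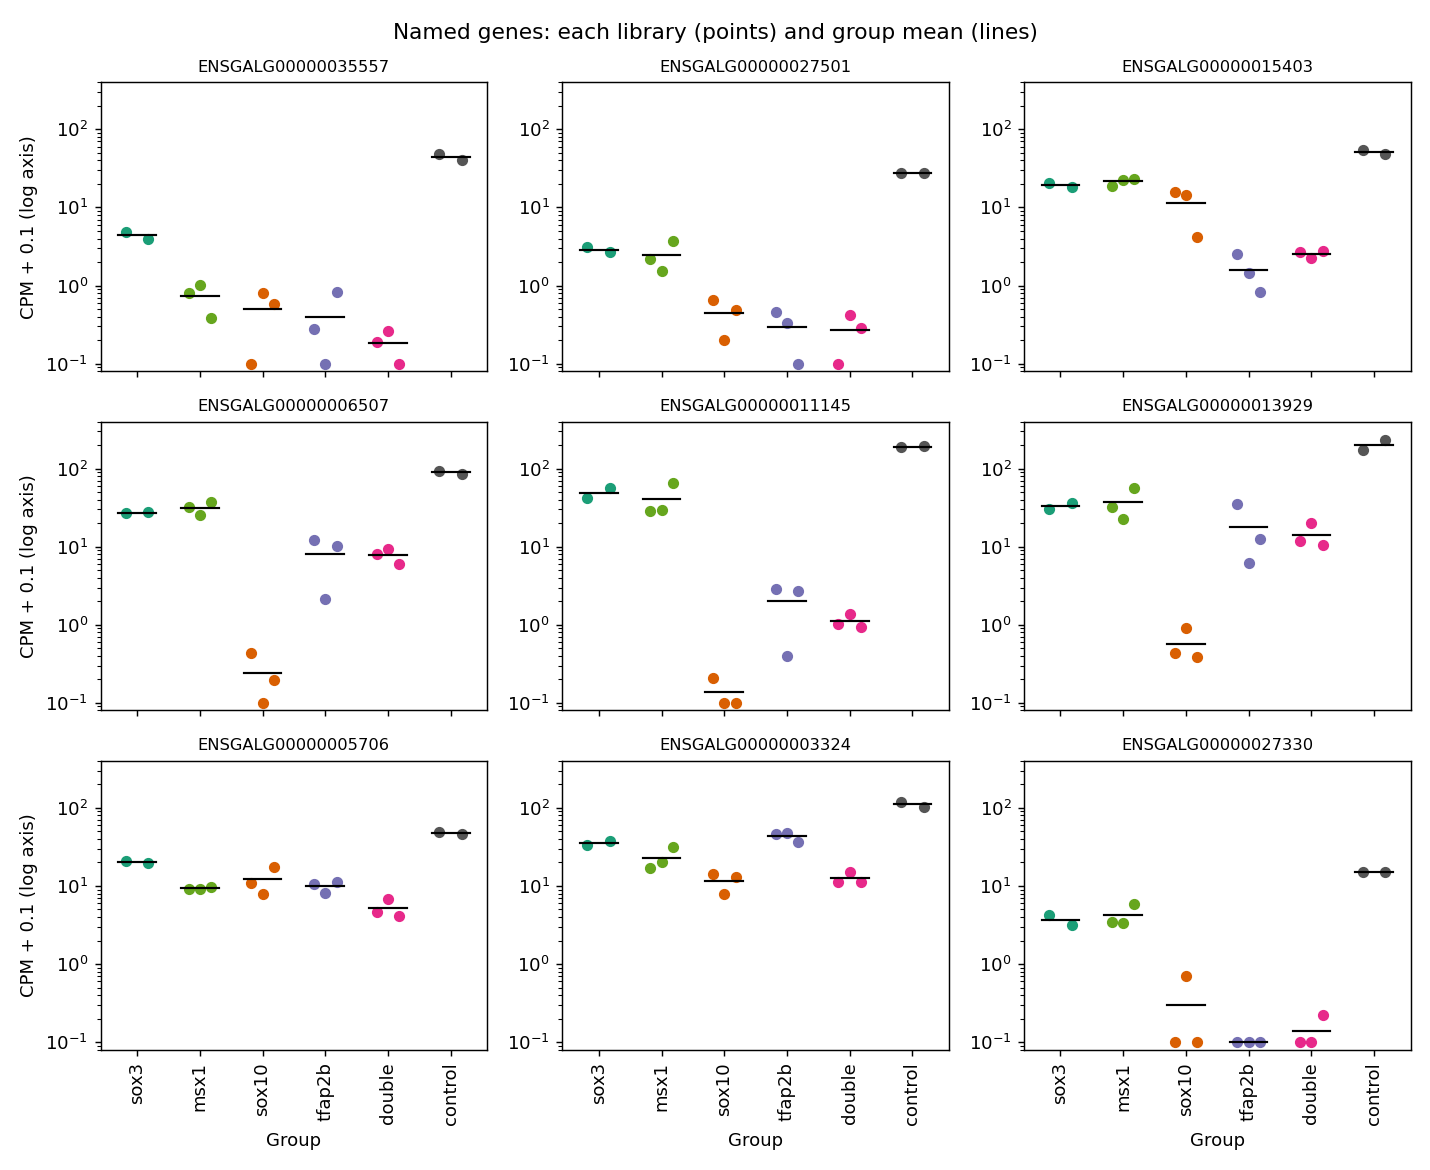
CPM + 0.1 (log axis) of the 9 genes named by rule, in each library (points) with group means (lines), guide-carrying groups first and control at the right. ENSGALG00000015403 has 2 of its 3 sox10 points near the upper tier, ENSGALG00000006507, ENSGALG00000011145 and ENSGALG00000013929 have theirs below every other group, and ENSGALG00000003324 has its tfap2b points at 36.4 to 47.3 CPM.

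The double group did not stand on 1 side of the sox10 group. These groups also differ in their sox10 guides, as listed above, so the contrast is not that of tfap2b targeting alone. Against sox10, 7 of the 140 genes (5.0%) were higher and 6 (4.29%) lower, shares under the 6.15% and 6.95% of all genes, with a median log2 fold change of -0.07 against 0.03 over all genes. The balance turned with the scaling. In CPM of the library total the double mean was above the sox10 mean for 77 of the 140 genes and below it for 62, and in TMM-scaled CPM it was above for 67 and below for 72. In both directions together 13 of the 140 (9.29%) were called, against 13.1% of all genes. Without adjustment, 18 were higher and 15 lower at a p under 0.05 (edgeR). The share of all genes at that p was not computed. The number called was 6 (4.29%) without double replicate 1 or 2, against 5.2% and 5.6% of all genes. It was 7 (5.0%, against 9.48% of all genes) without the control libraries and 2 (1.43%, against 2.0%) with the close pairs summed. DESeq2 called 25 (17.9%, against 22.8% of the genes to which it gave an adjusted p).

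Among the genes that were higher, ENSGALG00000006507 was higher in the double group than in sox10 by a log2 fold change of 5.47 (SE 0.74, adjusted p = 0.00208, edgeR), from the levels given above. ENSGALG00000013929 (chromosome 4, 65811116 to 65842656, 23 exons) had 11.9, 20.1 and 10.3 CPM in the double libraries against 0.329, 0.805 and 0.292 in the sox10 libraries (log2 fold change 4.60, SE 0.64, adjusted p = 0.00236, edgeR). It was at 34.9, 6.00 and 12.5 CPM in the tfap2b libraries, at 22.5 to 56.4 in the sox3 and msx1 libraries and at 171 and 233 in the controls. Neither gene overlapped between the double and sox10 libraries.

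Of the genes that were lower, ENSGALG00000015403 had a log2 fold change of -2.45 for double over sox10 (SE 0.50, adjusted p = 0.00892, edgeR; 0.0573 with the close pairs summed). ENSGALG00000005706 (chromosome 15, 7738958 to 7741807, 6 exons) had 4.48, 6.76 and 4.06 CPM in the double libraries against 10.9, 7.85 and 17.4 in the sox10 libraries (log2 fold change -1.53, SE 0.39, adjusted p = 0.0204, edgeR). It kept that call in 8 of 12 alternatives, and lost it without sox10 replicate 3 or double replicate 1 or 3, and also when close pairs were summed (adjusted p up to 0.104). The sox3 libraries had 20.5 and 19.3 CPM of it, the msx1 libraries 8.91, 9.03 and 9.71, the tfap2b libraries 10.6, 8.05 and 11.2, and the controls 49.2 and 45.6, so this gene had no tiers.

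Between the double and tfap2b groups 1 of the 140 genes was lower and 0 higher, where 0.0355% of all genes were lower and 0.0071% higher, although 106 of the 140 had a negative log2 fold change (median -0.44, against -0.02 over all genes). At an unadjusted p under 0.05, 24 were lower and 0 higher, but the share of all genes at that p was not computed. DESeq2 called 9 lower and 0 higher (6.43%, against 1.4% of the genes to which it gave an adjusted p, in both directions). The gene called by edgeR, ENSGALG00000003324 (chromosome 8, 4848542 to 4880892, 5 exons), had 11.1, 15.0 and 11.2 CPM in the double libraries against 46.5, 47.3 and 36.4 in the tfap2b libraries (log2 fold change -1.91, SE 0.32, adjusted p = 0.0483). Its sox10 libraries had 14.3, 7.85 and 12.8 CPM, its sox3 libraries 33.1 and 37.1, its msx1 libraries 16.8, 20.1 and 31.3, and the controls 120 and 103. The tfap2b libraries were thus not in the lower tier for this gene, and all but 1 of them exceeded every other guide-carrying library. The call held in 3 of 12 alternatives and was lost without any 1 of the 6 libraries compared (adjusted p 0.101 to 0.217, edgeR).

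Group means followed the order sox3, msx1, tfap2b, double, sox10 from high to low in 30 of the 140 genes. The 2 tiers, with both sox3 and msx1 means above the 3 others, held in 107. In 12 genes the sox10, tfap2b and double means were all under 5% of the control while both sox3 and msx1 were at 15% or more. A mean of the lower 3 groups exceeded both sox3 and msx1 in 8 genes, and that mean was the tfap2b one in 6 of them, the sox10 one in 1 and the double one in 1. The lowest group mean was the sox10 one for 70 genes, the double one for 45, the tfap2b one for 19, the msx1 one for 5 and the sox3 one for 1. These orders compare means in CPM without a test, and their shares over all genes with the control minimum were not computed. In TMM-scaled CPM the double mean was above the sox10 mean for 67 genes and below it for 72. The order of those groups thus depends on the scaling. The median of those genes stood at 89.6% of the control in the sox3 group and 97.3% in the msx1 group. It stood at 51.3% in the sox10 group, 62.3% in the tfap2b group and 69.6% in the double group. The same 2 tiers were thus present in the CPM medians of those genes, and not in the 140 alone. With TMM scaling the median log2 fold change of those genes was -0.14 in both the sox3 and msx1 groups. It was -0.44 in the sox10 group, -0.33 in the tfap2b group and -0.26 in the double group. The size of the gap thus depends on the scaling.

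Gene structure and position were not used by the rule beyond the limit to autosomes. The 140 genes had a median exonic length of 1814 bp (quartiles 1160 and 3009), against 2184 bp (1477 and 3300) over the 9028 genes with the control minimum. They had a median of 7 exons, against 10, and 10 of them (7.14%) had a single exon, against 1.76% of the 9028. Genomic spans were more often at both ends of the range. Spans up to 10000 bp were found for 50.7% of the 140 and 38.6% of the 9028, and spans over 100000 bp for 15.7% and 7.27%. These are descriptions without a test, and exonic length bears on how many reads a gene can collect.

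**Figure D5:**
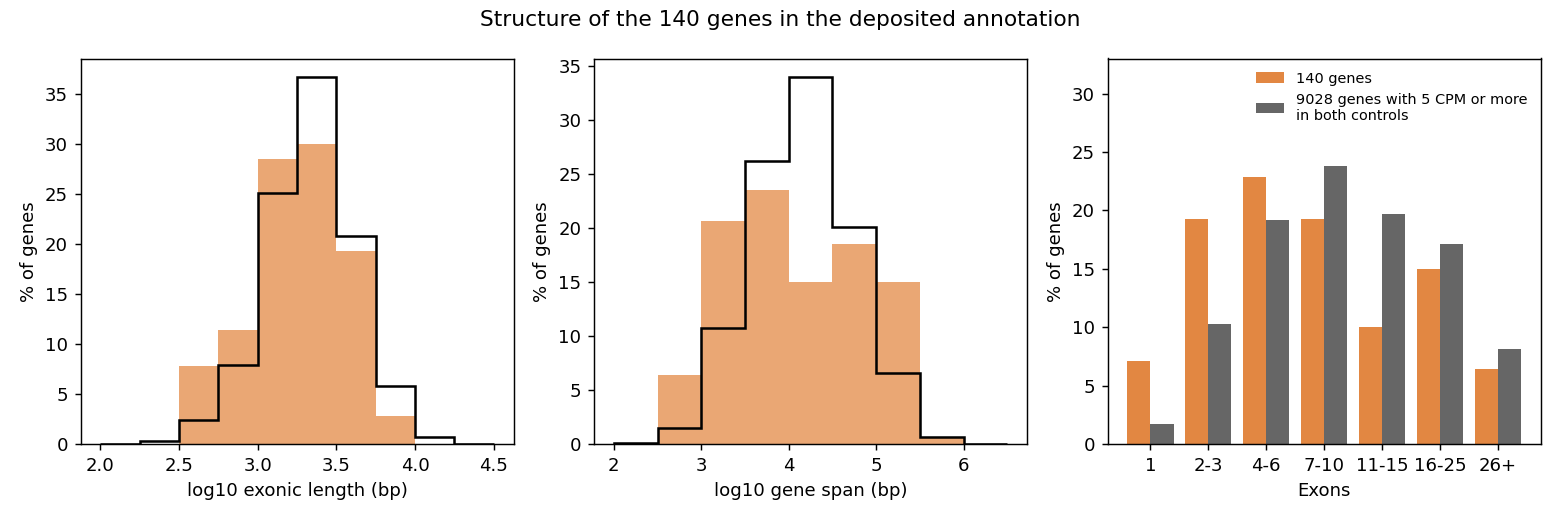
Exonic length and gene span (log10 bp) and number of exons of the 140 genes (orange) beside the 9028 autosomal genes with 5 CPM or more in both controls (black), as a percentage of each set. The 140 have more genes with a single exon (7.14% against 1.76%) and a span distribution with fewer genes in the middle.

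The genes were spread over 26 chromosomes. Chromosomes 1 to 5 held 44.3% of the 140 and 46.8% of the 9028, chromosomes 6 to 10 held 17.1% of each, and chromosomes 11 to 33 held 38.6% and 36.0%. Chromosome 12 had 9 of 247 eligible genes (3.64%) and chromosome 24 had 4 of 112 (3.57%), while chromosome 19 had 1 of 222 (0.450%) and chromosome 23 had 0 of 160. Both strands carried 70 genes each. Within 100 kb of another of the 140 lay 18 genes, in 8 places. These include 4 genes whose span overlaps that of another of the 140. No such counts were made over the 9028 genes.

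One such place, singled out after the values were seen, was on chromosome 4, where ENSGALG00000013929 and ENSGALG00000038607 (65843018 to 65844351, 2 exons) lie on opposite strands 362 bp apart. ENSGALG00000038607 was at 5.32 ± 0.515 CPM in the sox3 group (SD, n = 2), at 2.52 ± 1.06 in msx1, 0.204 ± 0.265 in sox10, 1.50 ± 0.719 in tfap2b and 0.954 ± 0.281 in the double group (SD, n = 3 each), and at 18.7 ± 3.78 CPM in the control (SD, n = 2). Both genes of the pair were lowest in the sox10 group. Another pair on chromosome 4, ENSGALG00000044235 (33261652 to 33262873, 2 exons) and ENSGALG00000045289 (33262137 to 33263215, a single exon), shares exon positions on 1 strand. Reads there cannot be assigned to 1 of these genes, so their values are uncertain, as are those of the 9 of the 140 (6.43%) that share exon positions with another gene, against 8.55% of the 9028.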

How the data were processed

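Reads had been sequenced by the submitters as pairs of 40 bp from low-input libraries of RNA with an integrity number above 6, per the labels' protocols. The authors deposited whole-number read counts per gene for 16 libraries, not normalized. The genome build was galGal5 and the tools were featureCounts (Subread 1.4.5), STAR 2.4.2a and DESeq2, per the submitters' processing notes. No source used here states the strand setting of the counting. Columns were matched to samples by their titles. CPM here is count divided by column total. The deposited counts were tested with edgeR 4.0.16 (R 4.3.3, limma 3.58.1) by glmQLFit and glmQLFTest with robust estimation, TMM, filterByExpr and 6 groups (10 residual degrees of freedom, common biological coefficient of variation 0.478). Contrasts with the control were described only, because the rule used them. Standard errors are the log2 fold change over the square root of F. DESeq2 1.42.0, RLE size factors, no filter, the replicate block, summed close pairs, a fit without the controls and the omission of each library were the alternatives. Named genes are the 2 with the highest score and, per contrast and direction, at most 2 called genes with the largest fold change, a group mean of at least 1 CPM and no overlap between libraries, with exceptions stated. Gene lists by symbol could not be used. The genes, the rule and the tests were chosen with earlier results of these data known.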

Additional observations from a re-analysis of the deposited data

How the results depend on the processing

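The rule gave 140 genes, and 130 with a pseudocount of 1 or a control minimum of 10 CPM, 151 with a pseudocount of 0.1, 154 with a minimum of 1 CPM, 120 with TMM-scaled CPM and 140 to 194 with a library left out. It gave 284 without the sox3 group and 262 without msx1, groups left out after the data were seen. For the lower over the upper tier (84 genes called), every alternative stayed within 1.5 times, and the number called was lowest with the close pairs summed. A library left out gave 71 to 97 (50.7% to 69.3%), against 40.9% to 55.2% of all genes, in both directions. With the close pairs summed the median log2 fold change was -1.55. For sox3 over msx1 (0 called) DESeq2 gave 6 (4.29%, against 2.1% of the genes to which it gave an adjusted p). The omission of any library gave 0, against 0.128% to 0.436% of all genes. For sox10 over tfap2b (9 called) DESeq2 gave 30 (21.4%, against 9.4% of the genes with an adjusted p). The 14 guide-carrying libraries gave 5 (3.57%, against 1.06% of all genes). A library left out gave 5 to 17 (3.57% to 12.1%, against 0.799% to 9.31%). With summed pairs the median log2 fold change was -0.48. For double over sox10 (13 called) DESeq2 gave 25 (17.9%, against 22.8% of the genes with an adjusted p). The 14 guide-carrying libraries gave 7 (5.0%, against 9.48% of all genes). A library left out gave 6 to 18 (4.29% to 12.9%, against 5.2% to 19.6%). With summed pairs the median log2 fold change was -0.07. For double over tfap2b (1 called) DESeq2 gave 9 (6.43%, against 1.4% of the genes with an adjusted p). Using no filter gave 2 (1.43%, against 0.0731% of all genes). The 14 libraries and the replicate block gave 0 each, against 0.0145% and 0.0213% of all genes. A library left out gave 0 to 1, against at most 0.0571% of all genes. With summed pairs the median log2 fold change was -0.45. The cause of these differences was not tested. No named gene changed direction in any alternative. Replicate numbers are shared between groups but did not pair the libraries: deviations of same-numbered libraries correlated above 0.1 in 2 of 36 pairs (range -0.086 to 0.148). With the replicate block the tiers had 86 genes called (61.4%, against 50.7% of all genes) and sox10 over tfap2b 7 (5.0%, against 1.13%). Double over sox10 had 10 (7.14%, against 9.3%) and sox3 over msx1 0 (against 0.234%). Summing close pairs leaves 1 sample in the sox3 and control groups, which is assumed to vary like the others. Depth limits the lowest values, as 1 count was 0.0401 to 0.175 CPM.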
